A study of Mus musculus with 8 samples.

Results

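The inhibitor of apoptosis proteins (IAPs) described here are the products of 8 mouse genes, Birc2, Birc3, Xiap, Birc6, Naip1, Naip2, Naip5 and Naip6. These genes were taken by symbol from the 54532 genes of the deposited count table. No cut on their values was used, but the choice was made with earlier results of these data known. 7 of the 8 passed the filter on low counts and were tested among 13560 genes; Naip1 had no reads. RNA was sequenced from 8 samples of LSK cells, the Lin- C-KIT+ SCA-1+ compartment of bone marrow that holds stem and progenitor cells, sorted into 4 EpCAM+ and 4 EpCAM- samples. All came from C57BL/6 mice aged 8 to 12 weeks with floxed Zeb1 alleles and Mx1-Cre, collected on day 14 after the final pIpC dose, with 4 mice in each group as the labels give it. Zeb1 encodes a zinc finger repressor of epithelial genes, EpCAM is an epithelial adhesion molecule, and pIpC switches on Mx1-Cre through interferon, in blood cells and in other interferon-responsive cells of the marrow. Both fractions therefore came from mice in which deletion of Zeb1 was induced, and no library of control mice entered the comparison. Whether the same mice gave both fractions is not stated. The question is which IAP genes differed between EpCAM+ and EpCAM- Zeb1-/- LSK cells.

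IAPs share the BIR domain, a zinc-binding fold. XIAP binds and inhibits caspases directly, whereas cIAP1 and cIAP2, the products of Birc2 and Birc3, act chiefly as RING ubiquitin ligases that keep TNF receptor signaling on its NF-kB, survival-promoting course and restrain the noncanonical NF-kB kinase NIK. BIRC6 is a giant ubiquitin-conjugating enzyme that also binds caspases, and the NAIPs kept the BIR domains but serve as sensors of bacterial flagellin or type III secretion proteins that assemble an inflammasome with NLRC4. In blood stem and progenitor cells the balance of these proteins against caspases and IAP antagonists is one of the settings of cell survival.

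Xiap, Birc2, Birc3 and Naip5 were higher in EpCAM+ cells, by 1.22-fold to 1.68-fold. Birc6 and Naip2 did not pass the test in either direction, Naip6 did not pass it unless the replicate number was a block or EpCAM- replicate 1 was left out, and Naip1 had 0 reads in all 8 libraries. Thus 4 of the 7 tested members rose and 0 fell, by the edgeR quasi-likelihood test, with p adjusted by Benjamini and Hochberg's method over all tested genes, where 21.8% of all tested genes were higher and 20.8% lower (42.6% in either direction). The median log2 fold change was 0.40 over the 7 tested members and 0.02 over all tested genes. Birc2, Birc3, Xiap and Naip5 stand on the study's own heat maps, which were drawn from these libraries, so their direction is not independent evidence. In these sorted bulk samples, fewer cells of a type and less RNA per cell cannot be told apart.

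The libraries held 14114491 to 17073546 counted reads each. Levels are given in CPM, the counts of a gene brought to a common library size with TMM scaling factors. Epcam, which defined the sort, had 161 to 234 CPM in the EpCAM+ libraries and 1.25 to 8.99 CPM in the EpCAM- libraries. Zeb1 itself still gave reads in both fractions, 14.8 to 23.7 CPM in EpCAM+ and 9.49 to 14.0 CPM in EpCAM- libraries. Its log2 fold change was 0.72 (SE 0.17, edgeR adjusted p = 0.00798). Whole-gene counts do not show the loss of floxed exons, so the extent of the deletion in each fraction is not known from them. Other populations moved with the fractions. The 10 stem and progenitor markers summed to 2644 to 2840 CPM in EpCAM+ and 1403 to 2190 CPM in EpCAM- libraries (8 of 10 higher, among them Kit and Ly6a), the 9 neutrophil markers, mainly the granule genes Mpo and Elane of immature myeloid cells, to 800.3 to 1357 against 9994 to 15768 CPM (3 of 8 tested lower), and the 8 erythroid markers to 36.4 to 81.2 against 279 to 671 CPM (4 of 7 tested lower, 1 higher). Plasma cell markers summed to 385 to 668 CPM in 3 EpCAM+ libraries, 3961 CPM in EpCAM+ replicate 1 and 169 to 256 CPM in EpCAM- libraries (2 of 4 tested higher). Xbp1 made up most of the EpCAM- sums, at 167 to 249 CPM, and its log2 fold change of 0.08 did not pass the test. Jchain had 199 to 3525 CPM in EpCAM+ and 0 to 0.27 CPM in EpCAM- libraries, and Mzb1 6.18 to 49.3 against 0.14 to 0.44 CPM. The 7 B cell markers summed to 75.6 to 124 CPM in EpCAM+ and 48.4 to 82.4 CPM in EpCAM- libraries (2 of 4 tested higher), and the 5 epithelial markers to 186 to 209.6 against 78.5 to 104 CPM (3 of 3 tested higher). The part of these populations in the IAP differences was not tested.

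**Figure D1:**
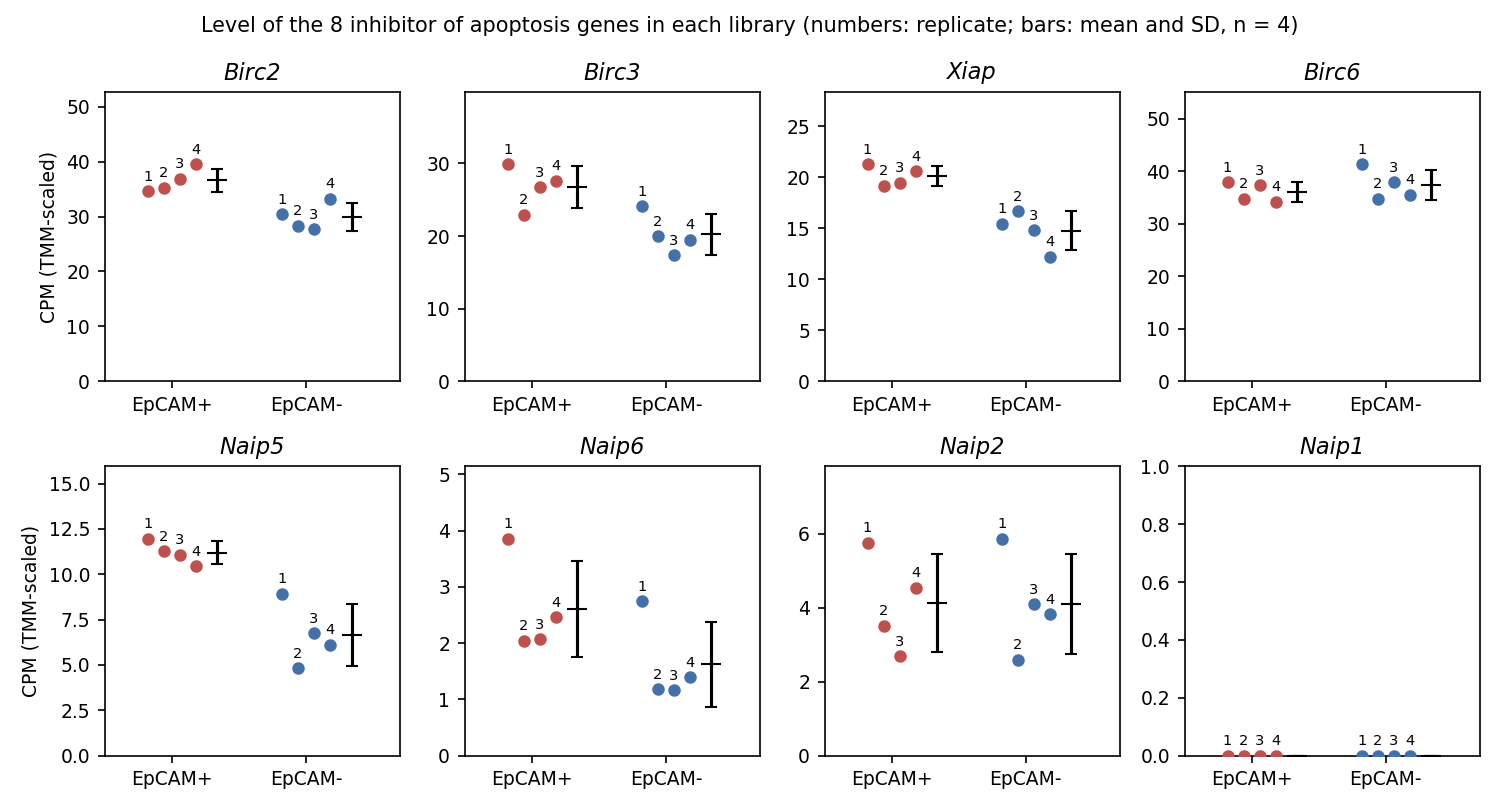
CPM of each of the 8 genes in the 4 EpCAM+ (red) and 4 EpCAM- (blue) libraries, with each panel's linear axis starting at 0, points numbered by replicate and black bars showing mean and SD. All EpCAM+ points lie above all EpCAM- points for Birc2, Xiap and Naip5, the points overlap for Birc3, Birc6, Naip6 and Naip2, and Naip1 is at 0. Of all tested genes, 20.1% had every EpCAM+ library above every EpCAM- library.

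The cIAP genes are neighbors on chromosome 9 (GRCm38, minus strand), Birc2 at 7818227 to 7837064 and Birc3 at 7848699 to 7873186, and their coding sequences are 77.8% identical over 1752 aligned bases. No 150-base stretch of either gene's transcripts, the length of one sequencing read, occurred in a transcript of another gene in GENCODE M21. Birc2 had 34.7, 35.3, 36.9 and 39.5 CPM in EpCAM+ replicates 1 to 4 and 30.4, 28.3, 27.7 and 33.2 CPM in EpCAM- replicates 1 to 4. The fractions did not overlap, which held for 40.1% of all tested genes (20.1% with EpCAM+ above and 20.0% with EpCAM+ below), and the EpCAM+ library with the least Birc2 was above the EpCAM- library with the most. The means were 36.6 ± 2.16 and 29.9 ± 2.49 CPM (SD, n = 4 each), a log2 fold change of 0.29 (SE 0.09, 95% interval 0.09 to 0.49, edgeR adjusted p = 0.0238). Birc2 was higher in 4 of 4 same-numbered pairs, which any pairing gives when the fractions do not overlap.

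Birc3, the cIAP gene that is itself a target of NF-kB, had 29.9, 23.0, 26.7 and 27.6 CPM in EpCAM+ libraries and 24.2, 19.98, 17.3 and 19.5 CPM in EpCAM- libraries. A single EpCAM+ library, replicate 2, fell below a single EpCAM- library, replicate 1, so that the fractions overlapped. The log2 fold change was 0.40 (SE 0.12, 95% interval 0.13 to 0.68, edgeR adjusted p = 0.0239), again higher in 4 of 4 same-numbered pairs. Birc3 made up 39.4% to 46.3% of the summed Birc2 and Birc3 reads in EpCAM+ libraries and 37.0% to 44.3% in EpCAM- libraries, so the mix of the cIAP transcripts overlapped between fractions. Their summed reads, 987 to 1138 against 653 to 874 per library, did not overlap. These sums were not scaled for library size, and the libraries held a mean of 16125400 reads in EpCAM+ and 14869906 in EpCAM-.

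Both cIAP calls lay close to the threshold. With the replicate number as a block, the edgeR adjusted p was 0.0136 for Birc2 and 0.00897 for Birc3. The fits with a library left out had no block. With 1 library left out, the edgeR adjusted p of Birc2 rose above 0.05 without EpCAM+ replicate 3 (0.0574), EpCAM+ replicate 4 (0.0708), EpCAM- replicate 2 (0.0537) or EpCAM- replicate 3 (0.0767), and that of Birc3 passed only without EpCAM+ replicate 2 (0.0170) or EpCAM- replicate 1 (0.00834) and lay between 0.0522 and 0.0741 without each of the other 6.

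Xiap lies on chromosome X (GRCm38, plus strand, 42059679 to 42109656). It had 21.2, 19.2, 19.4 and 20.6 CPM in EpCAM+ libraries and 15.4, 16.6, 14.8 and 12.2 CPM in EpCAM- libraries. Every EpCAM+ library was above every EpCAM- library, as for 20.1% of all tested genes. The means of 20.1 ± 0.97 and 14.8 ± 1.87 CPM (SD, n = 4 each) gave a log2 fold change of 0.44 (SE 0.11, 95% interval 0.19 to 0.70, edgeR adjusted p = 0.0106), and the call held with each of the 8 libraries left out (0.36 to 0.50). In same-numbered pairs the log2 difference was 0.45, 0.20, 0.38 and 0.73.

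Casp9, the initiator caspase downstream of mitochondria and a target of XIAP, had 16.7 to 22.03 CPM in EpCAM+ and 17.1 to 19.2 CPM in EpCAM- libraries, which overlapped. Its log2 fold change of 0.08 (SE 0.11, 95% interval -0.16 to 0.33, edgeR adjusted p = 0.563) did not pass the test.

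Of the genes for IAP antagonists, Htra2 and Gspt1 fell, Xaf1 rose and Diablo did not pass the test. These were 2 lower and 1 higher of 4 tested, with a median log2 fold change of -0.31. Over all tested genes, 20.8% were lower and 21.8% higher. Htra2 encodes a mitochondrial protease that binds XIAP once released, and fell by 0.95 on the log2 scale (SE 0.12, edgeR adjusted p = 0.000349), from 90.3 to 134 CPM in EpCAM- to 54.7 to 64.9 CPM in EpCAM+ libraries. Gspt1, a translation termination factor of which a processed form binds IAPs, fell by 0.53 (SE 0.07, edgeR adjusted p = 0.000596), from 175 to 205 CPM in EpCAM- to 124 to 141 CPM in EpCAM+ libraries. Xaf1, an interferon-inducible gene for a XIAP-associated factor, had 50.8, 47.6, 39.8 and 38.1 CPM in EpCAM+ libraries and 30.7, 29.3, 19.998 and 17.4 CPM in EpCAM- libraries. The fractions did not overlap, with EpCAM+ above as for 20.1% of all tested genes, and the log2 fold change was 0.85 (SE 0.18, edgeR adjusted p = 0.00440). Diablo, the gene of Smac, had 10.9 to 14.6 and 12.3 to 14.9 CPM (log2 fold change -0.09, 95% interval -0.37 to 0.20). Reading Xiap against these antagonists within each library needs no scaling between libraries, and the answer differed by antagonist. There were 37.4, 29.5, 35.6 and 32.8 Xiap reads per 100 Htra2 reads in EpCAM+ libraries and 17.1, 14.9, 11.8 and 9.10 in EpCAM- libraries, with means of 33.8 ± 3.42 and 13.2 ± 3.50 (SD, n = 4 each). Per 100 Gspt1 reads there were 13.8 to 17.1 Xiap reads in EpCAM+ and 5.96 to 8.89 in EpCAM- libraries. The lack of overlap in these ratios follows from the levels above, since Xiap lay higher and Htra2 and Gspt1 lower in every EpCAM+ library. Per 100 Diablo reads the counts of Xiap were 144 to 178 and 81.8 to 121, again without overlap. Against Xaf1 the order was turned, with 41.8, 40.2, 48.8 and 53.9 Xiap reads per 100 Xaf1 reads in EpCAM+ libraries and 50.2, 56.8, 74.1 and 70.04 in EpCAM- libraries, means of 46.2 and 62.8, and ranges that overlapped. Htra2 is also among the genes the study chose to draw from these libraries.

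**Figure D2:**
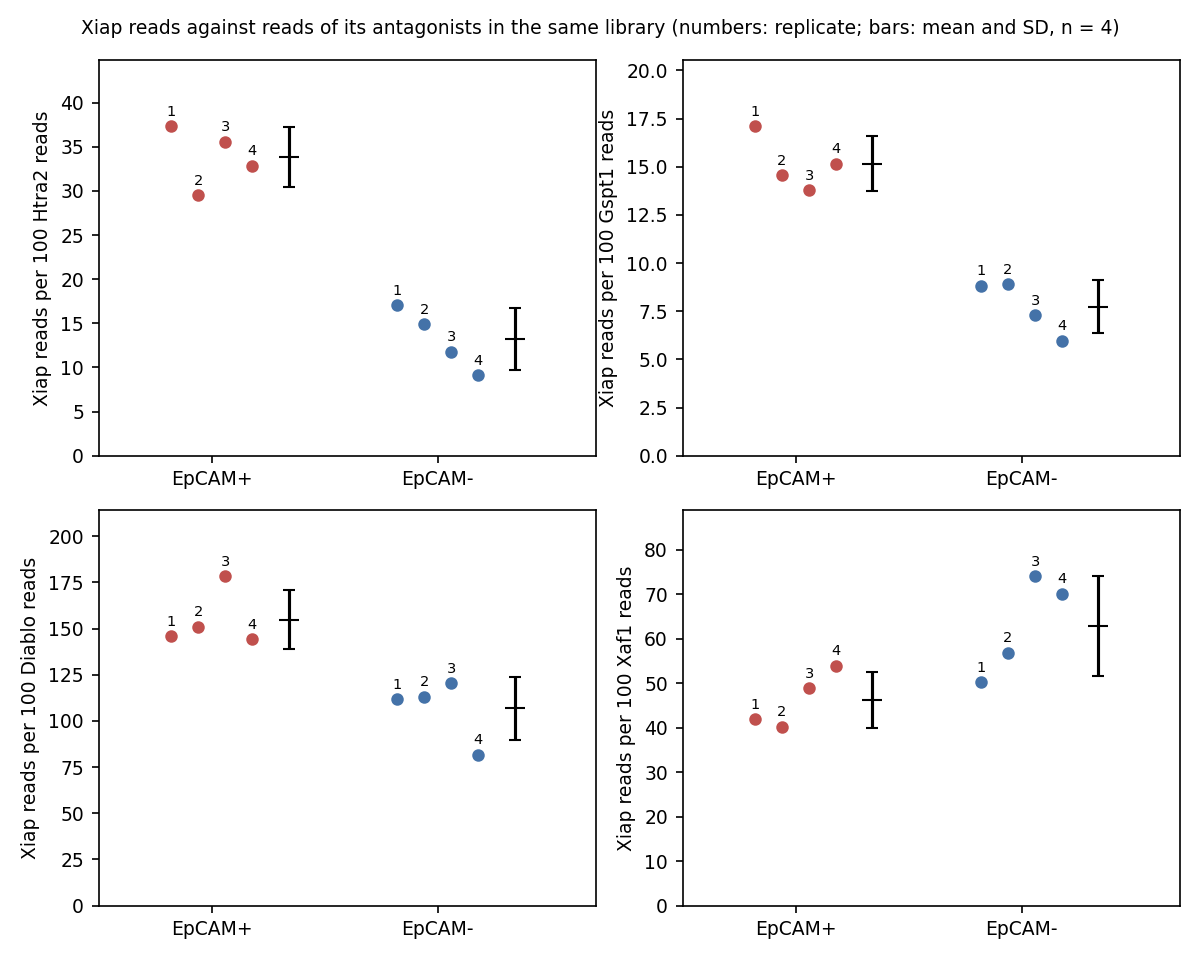
Xiap reads per 100 reads of Htra2, Gspt1, Diablo or Xaf1 in the same library, for 4 EpCAM+ (red) and 4 EpCAM- (blue) libraries on linear axes from 0, with points numbered by replicate and black bars giving mean and SD. All 4 EpCAM+ libraries lie above the EpCAM- range for Htra2, Gspt1 and Diablo, while for Xaf1 the EpCAM+ mean is lower and the ranges, 40.2 to 53.9 and 50.2 to 74.1, overlap.

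Birc6 lies on chromosome 17 (GRCm38, plus strand, 74528295 to 74703356). It had 37.9, 34.8, 37.4 and 34.2 CPM in EpCAM+ libraries and 41.3, 34.8, 37.9 and 35.5 CPM in EpCAM- libraries, ranges that overlapped over most of their width. The log2 fold change was -0.05 (SE 0.08, 95% interval -0.24 to 0.14, edgeR adjusted p = 0.642), an interval whose upper end lies below the Birc3 and Xiap estimates. Its sign was positive, 0.03, with upper-quartile scaling or library totals. A stretch of 0.817% of its 150-base windows also occurred in transcripts of the noncoding gene Gm26749.

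Among 7 tested genes for ubiquitin enzymes that work with the IAPs, 3 fell and 0 rose, with a median log2 fold change of -0.10. Over all tested genes, 20.8% fell and 21.8% rose. Uba1, the main E1 ubiquitin-activating enzyme, fell by 0.34 (SE 0.07, edgeR adjusted p = 0.00413), and Ube2d3, an E2 used by RING ligases, fell by 0.28 (SE 0.07, edgeR adjusted p = 0.00765). Ube2n, the E2 for K63-linked chains, fell by 0.20 (SE 0.07, edgeR adjusted p = 0.0314). This call passed in 3 of the 6 fits with DESeq2, another scaling or another filter, and was lost with upper-quartile scaling (0.187). It was also lost without each of 5 libraries, EpCAM+ replicates 1, 2 and 3 and EpCAM- replicates 2 and 3 (0.0531 to 0.0941). Uba6, the E1 that charges BIRC6, had a log2 fold change of 0.13 (95% interval -0.12 to 0.38), and Usp19, a deubiquitinase that acts on cIAPs, 0.17 (-0.01 to 0.35).

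The other BIR-domain genes of the list were Birc5, which encodes survivin, a mitotic protein of dividing cells, and Birc7, which had 0 reads in all 8 libraries. Birc5 was lower in EpCAM+ cells, 229.8 to 293 CPM against 304 to 373 CPM, with a log2 fold change of -0.36 (SE 0.11, edgeR adjusted p = 0.0202). The call was lost with upper-quartile scaling (0.0652) and without EpCAM+ replicate 3 (0.0601) or EpCAM- replicate 4 (0.0514).

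The NAIP genes form a cluster on chromosome 13 (GRCm38, all minus strand), with Naip2 at 100144063 to 100202092, Naip5 at 100211739 to 100246323, Naip6 at 100281121 to 100317674 and Naip1 at 100407764 to 100452869. NAIP5 and NAIP6 detect flagellin, NAIP2 the rod and NAIP1 the needle of type III secretion systems. The genes are close paralogs, which bears on how reads could be assigned to each. Naip5 and Naip6 had 97.0% identical coding bases (4084 of 4212 aligned), and the other pairs of the 4 had 89.8% to 92.2%. The first 90 coding bases are shown for this reason, in lower case with capitals where a gene differs from Naip5; they lie in exon 1 of the Naip5 and Naip6 transcripts and in exon 2 of the Naip2 and Naip1 transcripts of GENCODE M21, at chr13:100246110-100246199, chr13:100316462-100316551, chr13:100189309-100189398 and chr13:100444648-100444737.
Naip5: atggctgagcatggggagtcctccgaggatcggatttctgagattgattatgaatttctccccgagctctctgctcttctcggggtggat
Naip6: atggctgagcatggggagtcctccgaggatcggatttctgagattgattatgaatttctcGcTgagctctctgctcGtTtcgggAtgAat
Naip2: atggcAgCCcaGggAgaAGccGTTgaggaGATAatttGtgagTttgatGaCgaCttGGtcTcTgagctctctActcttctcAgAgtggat
Naip1: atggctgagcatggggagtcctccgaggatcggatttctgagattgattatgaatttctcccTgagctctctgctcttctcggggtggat

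In this stretch Naip1 differed from Naip5 at 1 base, Naip6 at 6 and Naip2 at 26. Over whole transcripts, 8.25% of the 150-base windows of Naip5 occurred exactly in another gene's transcript, 295 of 5055 in Naip3, 122 in Naip6 and 37 in Naip1, against 0.537% for Naip2, 1.89% for Naip6 and 4.96% for Naip1. Reads from such windows cannot be placed by sequence alone, and how the counting treated them is not given in the sources used here. Naip3 and Naip3-ps1, both listed as unprocessed pseudogenes, had 2 reads in EpCAM+ replicate 1 and 0 in the others, and 0 to 6 reads.

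Naip5 had 11.96, 11.3, 11.1 and 10.4 CPM in EpCAM+ libraries and 8.93, 4.81, 6.76 and 6.10 CPM in EpCAM- libraries. Levels were tight in EpCAM+ cells and spread more in EpCAM- cells. The fractions did not overlap, with EpCAM+ above as for 20.1% of all tested genes. The means were 11.2 ± 0.63 and 6.65 ± 1.72 CPM (SD, n = 4 each). With a log2 fold change of 0.75 (SE 0.18, 95% interval 0.34 to 1.15, edgeR adjusted p = 0.00853), Naip5 had the largest difference of the tested members, and the call held with each of the 8 libraries left out (0.61 to 0.92).

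Naip6, its nearest paralog, was scarcer, at 36 to 59 reads per EpCAM+ library and 16 to 44 reads per EpCAM- library. It had 3.86, 2.04, 2.07 and 2.46 CPM in EpCAM+ and 2.75, 1.18, 1.16 and 1.40 CPM in EpCAM- libraries. Replicate 1 was the highest of each fraction, and EpCAM- replicate 1 lay above 3 of the EpCAM+ libraries. The log2 fold change of 0.67 (SE 0.35, 95% interval -0.11 to 1.44) did not pass the test (edgeR adjusted p = 0.147). Within same-numbered pairs Naip6 was higher in 4 of 4, by 0.42, 0.59, 0.63 and 0.64 on the log2 scale. A small constant was added to each CPM before these logs, which makes the differences smaller at such low levels. With the replicate number as a block the log2 fold change of Naip6 was 0.71 (edgeR adjusted p = 0.0340). Leaving out EpCAM- replicate 1 also brought it past the threshold (1.05, edgeR adjusted p = 0.0255).

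Naip2 had 5.75, 3.52, 2.68 and 4.54 CPM in EpCAM+ and 5.87, 2.59, 4.10 and 3.82 CPM in EpCAM- libraries. The ranges covered each other almost fully, and the highest value of each fraction was again in replicate 1. The log2 fold change was 0.00 with a wide 95% interval of -0.68 to 0.68 (edgeR adjusted p = 0.998), which includes the estimate for Xiap and excludes that for Naip5. Naip1 had 0 reads in every library, where 3 reads would correspond to 0.168 to 0.222 CPM, the level up to which a count of 0 allows for it (counting error alone). The summed monocyte and macrophage markers also had their highest value of each fraction in replicate 1, 422 CPM in EpCAM+ and 966 CPM in EpCAM- libraries, against 87.4 to 256 and 260 to 488 CPM in the others. Of these 12 markers 3 were lower and 0 higher in EpCAM+ cells of 10 tested. Some genes of the list were scarce, with at most 7 reads of Ms4a7 or Mrc1 in any library, 39 of Adgre1, 73 of C1qc and 106 of Vcam1. Others were not, with up to 11423 reads of Ly6c2, 1897 of Fcgr3, 1573 of Cd68, 1548 of Ccr2 and 494 of Csf1r. In replicate 1, Ly6c2 alone had 211 of the 422 CPM in EpCAM+ and 713 of the 966 CPM in EpCAM-. Among EpCAM+ libraries, Ly6c2, Cd68 and Ccr2 were highest in replicate 1, but Csf1r was lowest there, at 0.78 CPM against 1.51 to 3.11 CPM. The summed dendritic cell markers were also highest in replicate 1 of each fraction, at 792 CPM in EpCAM+ and 309 CPM in EpCAM-. The part of monocytes, macrophages and dendritic cells in the NAIP values was not tested.

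The sum over the 4 NAIP genes does not depend on how reads were split among them, but reads counted for Naip3 or left out as multi-mapping would lie outside it. The summed level was 21.6, 16.8, 15.8 and 17.4 CPM in EpCAM+ and 17.5, 8.58, 12.01 and 11.3 CPM in EpCAM- libraries. The EpCAM- replicate 1 value lay within the EpCAM+ range and the other 3 were below it. Within the sum, the Naip2 share differed, while the level of Naip2 itself had a log2 fold change of 0.00. Naip2 took 26.7%, 20.9%, 16.96% and 26.0% of the NAIP reads in EpCAM+ libraries and 33.5%, 30.2%, 34.1% and 33.8% in EpCAM- libraries, without overlap. The Naip5 share, 55.5% to 69.96% against 50.9% to 56.25%, and the Naip6 share, 12.1% to 17.9% against 9.66% to 15.7%, overlapped. Naip5 reads per Naip2 read were 2.08, 3.21, 4.12 and 2.30 against 1.52, 1.86, 1.65 and 1.60, again without overlap. Naip2 shared no 150-base window with Naip5 or Naip6, and its 26 shared windows were with Naip1 and Naip3.

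**Figure D3:**
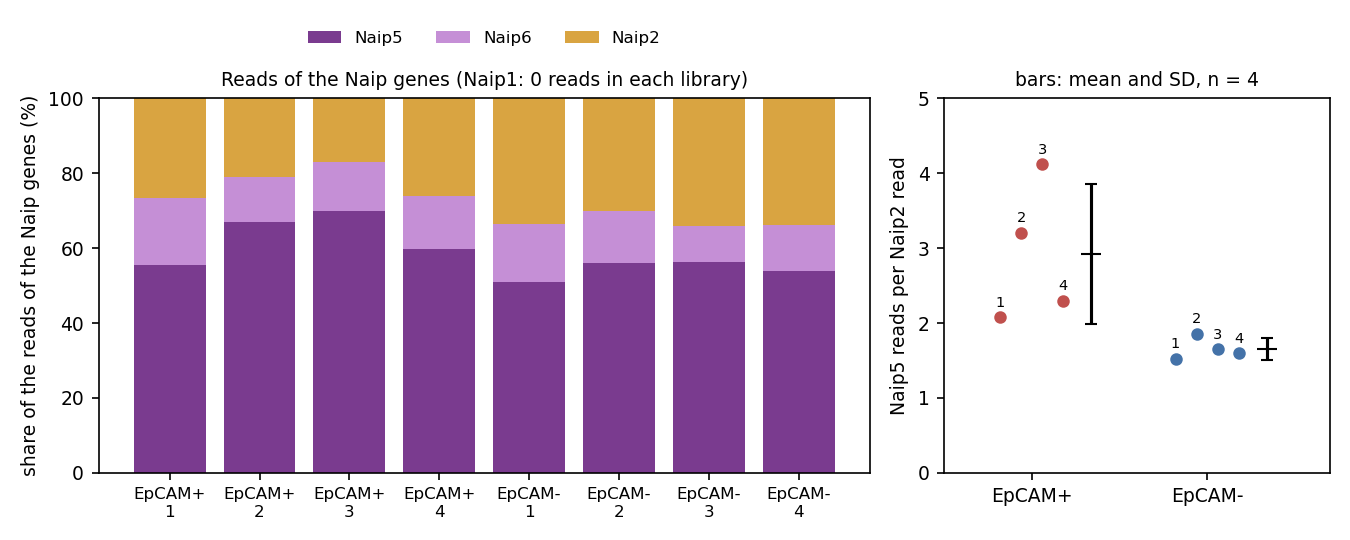
Left, the share of NAIP reads taken by Naip5, Naip6 and Naip2 in each of the 8 libraries, as stacked bars in percent that reach 100; right, Naip5 reads per Naip2 read, with points numbered by replicate and black bars for mean and SD of 4 libraries. Naip2 takes 16.96% to 26.7% in EpCAM+ and 30.2% to 34.1% in EpCAM- libraries, and the ratio on the right is higher in every EpCAM+ library.

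The sequences just before the RefSeq starts of Naip5 and Naip2 (GRCm38.p6, minus strand) are shown because only Naip5 of this pair passed the test. The 150 bases are those at chr13:100247337-100247486 and chr13:100202123-100202272, and capitals mark their longest common run, 34 bases that start 46 bases before the start of Naip5 and 39 before that of Naip2.
Naip5: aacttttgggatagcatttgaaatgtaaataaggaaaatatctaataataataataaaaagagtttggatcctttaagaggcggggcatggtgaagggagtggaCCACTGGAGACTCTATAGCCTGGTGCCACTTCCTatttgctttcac
Naip2: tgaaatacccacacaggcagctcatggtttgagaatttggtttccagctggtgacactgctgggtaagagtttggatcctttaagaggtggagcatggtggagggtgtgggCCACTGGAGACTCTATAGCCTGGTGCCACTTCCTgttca

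The run occurred in 2 of the 32851 RefSeq promoter windows, which reach from 250 bases before to 50 bases after a start, and those were these 2. The longest run that Naip5 shared with Naip6 before the RefSeq starts was 6 bases, but their windows need not match in position. The Naip6 window, chr13:100316567-100316866, lies inside the span of Naip6 in the deposited table, which ends at 100317674. The Naip5 window, chr13:100247287-100247586, lies outside the span of Naip5, which ends at 100246323. Like parts of Naip5 and Naip6 may therefore not have been compared. A kappaB site, the motif of NF-kB, was present on either strand in 2 of the 11 windows that matched the 8 members by symbol, those of Naip5 and of one Xiap start, and in 8.46% of all windows. The E-box CAGGTG, a motif bound by ZEB1 and other factors, was in 0 of the 11 and in 20.2% of all windows, searched on both strands. These are matches of letters in short windows and say nothing about binding.

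Of the other genes of the NAIP inflammasome, 2 were higher and 1 lower of 7 tested, where 21.8% of all tested genes were higher and 20.8% lower. Their median log2 fold change was 0.22 (4 higher with the replicate number as a block, 3 with upper-quartile scaling or library totals). Nlrc4, the adaptor that NAIPs recruit, had 1.24, 0.74, 0.89 and 1.88 CPM in EpCAM+ and 3.81, 2.89, 3.14 and 2.79 CPM in EpCAM- libraries. It was lower in EpCAM+ cells without overlap, as for 20.0% of all tested genes. The log2 fold change was -1.42 (SE 0.31, edgeR adjusted p = 0.00473), so the sensor Naip5 and its adaptor Nlrc4 differed in opposite directions. Il18, a cytokine processed by caspase-1, rose from 3.46 to 7.99 CPM in EpCAM- to 17.7 to 23.9 CPM in EpCAM+ libraries, a log2 fold change of 1.86 (SE 0.23, edgeR adjusted p = 0.000330). Casp4, the mouse noncanonical inflammasome caspase, had a log2 fold change of 0.71 (SE 0.16, edgeR adjusted p = 0.00589). Casp1 and Pycard, the caspase and adaptor common to most inflammasomes, had log2 fold changes of -0.01 (95% interval -0.39 to 0.36) and 0.03 (-0.39 to 0.45). Gsdmd, the pore-forming effector, and Aim2, a DNA sensor, had log2 fold changes of 0.22 and 0.40 that did not pass as tested (edgeR adjusted p = 0.105 and 0.0945) and passed with the block (edgeR adjusted p = 0.0230 and 0.0411). Gsdmd also passed with upper-quartile scaling (edgeR adjusted p = 0.0383), and Aim2 with library totals and without EpCAM+ replicate 2 (edgeR adjusted p = 0.0318). Il1b and Nlrp3 had at most 24 and 14 reads per library and were not tested.

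In the list of TNF receptor and NF-kB signaling through cIAP1, cIAP2 and XIAP, 6 of 27 tested genes rose and 2 fell, where 21.8% of all tested genes rose and 20.8% fell, and the median log2 fold change was 0.09. With the replicate number as a block, 7 rose and 3 fell, as Tnfrsf1b, the second TNF receptor, and Tab1, a subunit of the TAK1 complex, also passed (edgeR adjusted p = 0.0455 and 0.0460). Traf1, an NF-kB-induced adaptor that binds TRAF2 and cIAPs, had 14.0, 6.12, 7.04 and 14.5 CPM in EpCAM+ and 2.87, 0.30, 1.77 and 0.96 CPM in EpCAM- libraries. These did not overlap, with EpCAM+ above as for 20.1% of all tested genes, and the log2 fold change was 2.78 (SE 0.51, edgeR adjusted p = 0.00211). Map3k14, which encodes NIK, the kinase degraded with the help of cIAPs, had 6.09 to 10.3 against 2.21 to 3.85 CPM (log2 fold change 1.19, SE 0.24, edgeR adjusted p = 0.00333). Nod2, a peptidoglycan sensor whose signal runs through RIPK2 and XIAP, rose by 2.36 (SE 0.52, edgeR adjusted p = 0.00509), at 1.56 to 3.27 CPM against 0.14 to 1.18 CPM.

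Traf5, an adaptor of TNF receptor family members, rose by 0.86 (edgeR adjusted p = 0.00882), Cyld, a deubiquitinase that trims K63-linked and linear chains, by 0.43 (0.0112) and Tab2, a chain-binding subunit of the TAK1 complex, by 0.28 (0.0203). The Tab2 call was lost without EpCAM+ replicate 1 (0.0657), EpCAM+ replicate 4 (0.0539) or EpCAM- replicate 3 (0.0608). It passed in 5 of the 6 fits with DESeq2, another scaling or another filter. Rbck1, the HOIL-1 subunit of the linear ubiquitin ligase, fell by 0.27 (edgeR adjusted p = 0.0173) and Map3k7, the gene of TAK1, by 0.34 (0.0360). Neither fall passed with upper-quartile scaling (0.0668 and 0.0889) or with library totals. Without EpCAM+ replicate 3 the adjusted p of Rbck1 was 0.0527, and that of Map3k7 was 0.0508 to 0.0894 without EpCAM+ replicates 1, 2 or 3 or EpCAM- replicates 1, 3 or 4.

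The scaffold of the receptor complexes did not pass the test. Tnfrsf1a, the main TNF receptor, had a log2 fold change of 0.03 (95% interval -0.22 to 0.28), Traf2, which recruits the cIAPs, -0.16 (-0.35 to 0.02), Traf3, their partner in NIK degradation, 0.04 (-0.25 to 0.33), and Ripk1, a kinase that cIAPs ubiquitinate, 0.09 (-0.08 to 0.26). The IKK genes Chuk, Ikbkb and Ikbkg had 0.17, 0.09 and 0.10. Cd40, a receptor with restricted expression, had 74, 1, 16 and 54 reads in EpCAM+ libraries and 2, 0, 0 and 0 in EpCAM- libraries and did not pass the filter. Xcr1, a dendritic cell marker, was high in the same EpCAM+ libraries as Cd40 and low in the same one, at 2251, 202, 640 and 2018 reads (chosen after its values were seen), and the summed dendritic cell markers were 792, 167, 282 and 672 CPM there against 208 to 309 CPM in EpCAM- libraries. Their part in the Cd40 and Traf1 values was not tested.

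**Figure D4:**
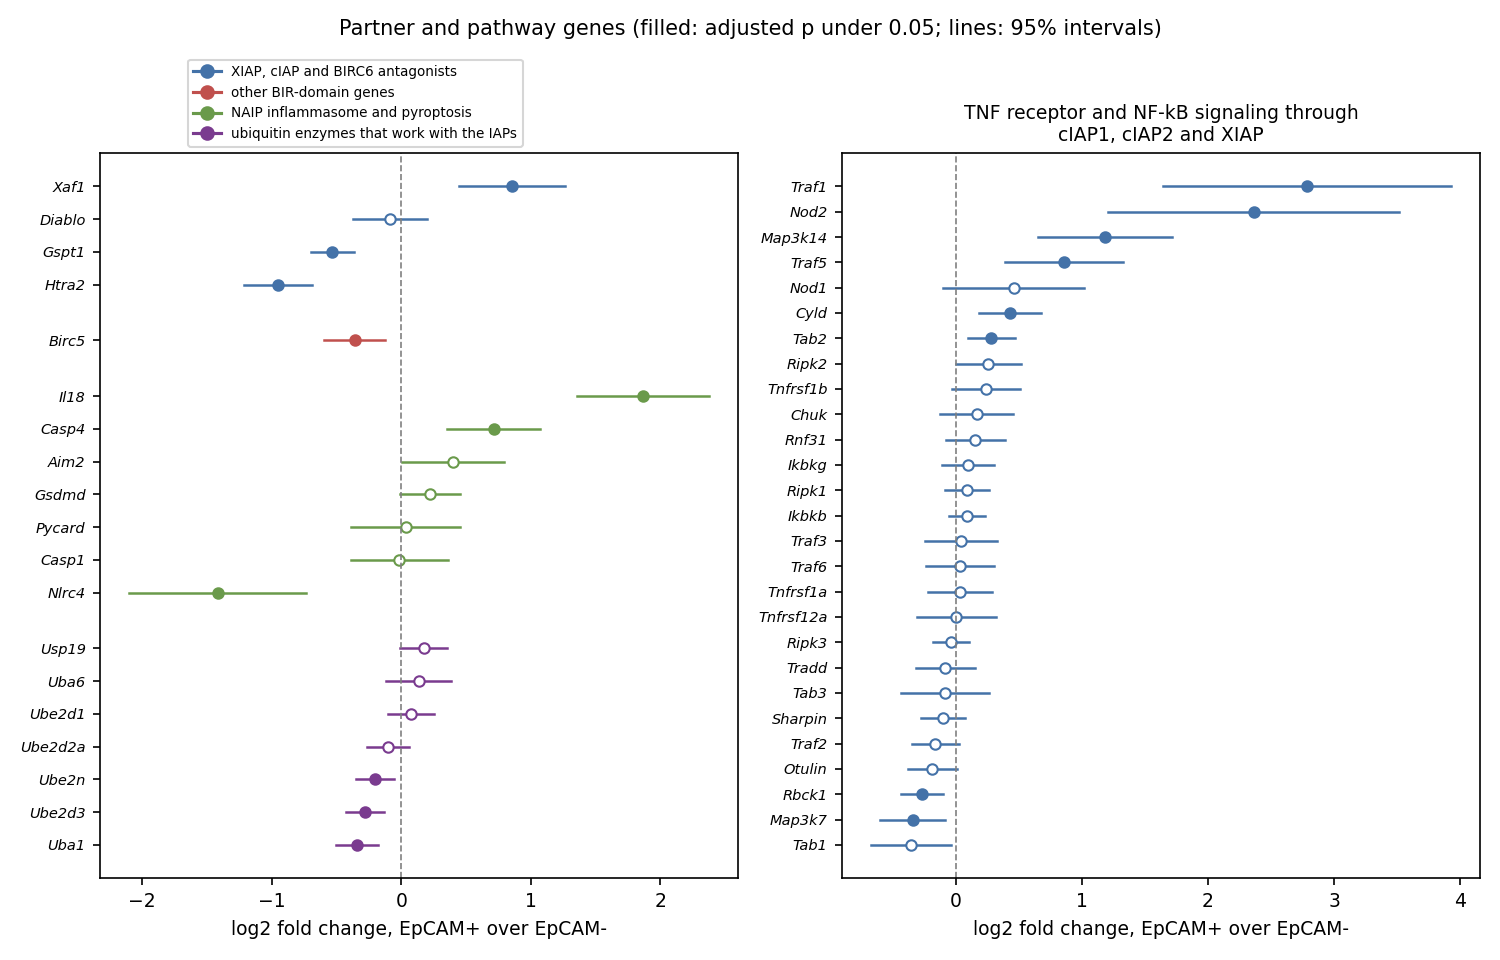
Log2 fold change of EpCAM+ over EpCAM- (horizontal axis) for the tested genes of the antagonist, BIR-domain, inflammasome, ubiquitin enzyme and TNF signaling lists, with lines for 95% intervals and filled points for an edgeR adjusted p under 0.05. Htra2 and Nlrc4 lie to the left of 0 and Traf1, Nod2 and Il18 to the right, with most genes of TNF signaling near 0.

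Set side by side, the 7 tested members had log2 fold changes from -0.05 to 0.75.

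**Figure D5:**
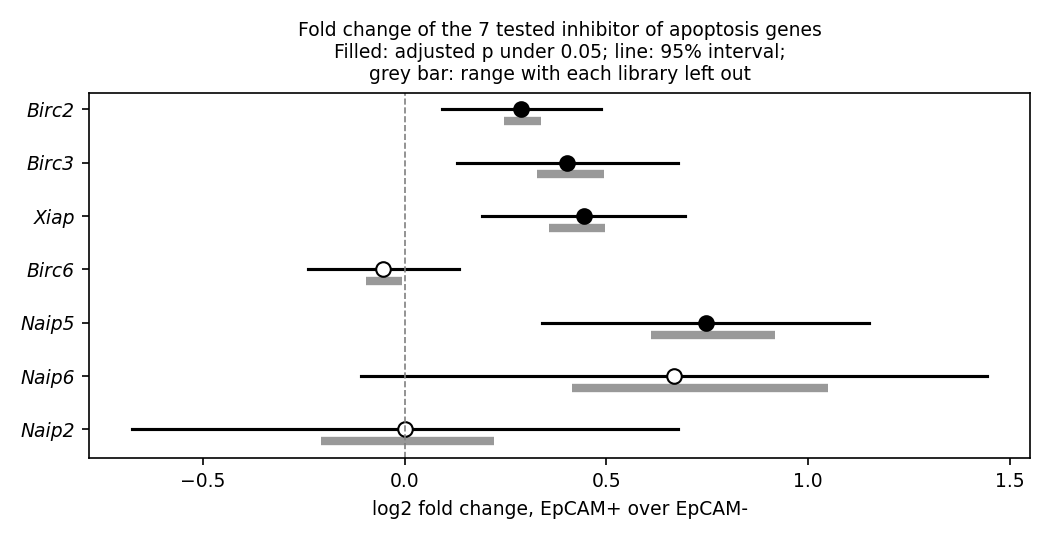
Log2 fold change of EpCAM+ over EpCAM- for the 7 tested members, with black lines for 95% intervals, filled points for an edgeR adjusted p under 0.05 and grey bars for the range of estimates with each library left out in turn. The grey bars of Birc2, Birc3, Xiap, Naip5 and Naip6 lie wholly above 0, that of Birc6 just below it (-0.09 to -0.01), and that of Naip2 spans it.

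Levels were compared between members per kilobase of the length in the deposited table. In EpCAM+ cells the order was Birc2 (7.99 ± 0.47 CPM per kb), Birc3 (5.35 ± 0.58), Naip5 (2.15 ± 0.12), Xiap (2.12 ± 0.10), Birc6 (1.25 ± 0.06), Naip2 (0.85 ± 0.27), Naip6 (0.38 ± 0.13) and Naip1 at 0 (SD, n = 4). Naip5 and Xiap overlapped over libraries, as did Naip2 and Naip6, and the other neighbors in this order did not. In EpCAM- cells Birc2 (6.53 ± 0.55 CPM per kb) and Birc3 (4.04 ± 0.57) also led, and neither overlapped with the gene after it. Xiap (1.56 ± 0.20), Birc6 (1.30 ± 0.10), Naip5 (1.28 ± 0.33), Naip2 (0.85 ± 0.28) and Naip6 (0.24 ± 0.11) followed. Of these, Xiap, Birc6 and Naip5 each overlapped with the gene after it, and Naip2 did not overlap with Naip6. The order depends on the lengths. The deposited FPKM imply shorter lengths for the BIRC genes, 1197 instead of 5009 bases for Birc3 and 1772 instead of 4580 for Birc2. They also imply 3290 instead of 9469 bases for Xiap and 4643 instead of 28830 for Birc6, but the same 5204 bases for Naip5. On that scale Birc3 and Birc2 had mean FPKM of 22.9 and 21.2 in EpCAM+ cells and of 16.4 each in EpCAM- cells. In EpCAM+ cells Birc6 (7.97) and Xiap (6.26) then lay above Naip5 (2.21), which had rank 5 in place of 3. The place of Naip5 beside Xiap and above Birc6 thus rests on the length column. Fold changes between fractions for a single gene do not use the length.

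The genes most like a member over the 8 libraries were found for the 3 tested members with the largest differences, by the smallest root mean square distance between centered log2 CPM among 11728 protein-coding genes. For Naip5 these were Prkcq, a protein kinase C of T cells (distance 0.083, log2 fold change 0.81), and Atp2a3, a calcium pump of blood cells (0.10, log2 fold change 0.80). For Naip6 they were Evi2 (0.16) and Cpeb4, an RNA-binding translation factor (0.18), and for Xiap Bivm (0.045) and Tpd52 (0.062).

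Genes beside the NAIP cluster, chosen after their values were seen, did not share one direction. Ocln and Marveld2, which encode tight junction proteins, were higher in EpCAM+ cells by 2.87 and 1.64 on the log2 scale (edgeR adjusted p = 0.00111 and 0.000140), Smn1, a splicing assembly factor, and Gtf2h2, a subunit of TFIIH, were lower by 0.73 and 0.36 (0.000179 and 0.00187), and Serf1 had a log2 fold change of 0.16 (0.206).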

How the data were processed

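Per the labels and methods, the authors amplified RNA with SMART-Seq v4, sequenced 150-bp paired ends, aligned reads to GRCm38.p6 with STAR 2.6.1d and counted them with featureCounts 1.5.0-p3 (versions from the submitters' processing notes). Annotation release, strandedness and treatment of multi-mapping reads are not given in the sources used here. The deposited table holds raw counts, used throughout, and FPKM computed by the authors, used only for an alternative order of levels. Its log2 fold changes and p-values, computed by the authors with DESeq2 1.20.0, were not used.

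Counts were filtered with filterByExpr, scaled by TMM and tested with edgeR 4.0.16 (quasi-likelihood, two-sided, Benjamini-Hochberg over all genes, threshold 0.05) in R 4.3.3. Fold changes are EpCAM+ over EpCAM-, as fitted by edgeR. A prior count of 2 was used for the log2 CPM of the distance rule and of the correlation between libraries. For log2 differences in same-numbered pairs, a small constant was added to each CPM. The scripts were tested on simulated data. Alternatives were DESeq2 1.42.0, 3 other scalings, 2 other filters, the replicate block and each library left out. Sequences came from GENCODE M21 and RefSeq, with Biopython 1.88. Figures were drawn with matplotlib 3.10.9. Of the 6 IAP antagonist genes listed, 4 were analysed here. Some genes of the pathway lists are not reported here.

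Same-numbered libraries deviated together from their fraction means (correlation across 13560 genes 0.205 to 0.356 in 4 pairs, against -0.216 to 0.0396 in 12 other pairs), so the numbers were taken to pair them, although what they share is not stated. No 2 libraries were duplicates. The labels give 4 mice per group, and p-values measure the spread between these samples. Counting limits cover counting error alone.

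Members and lists were chosen with earlier results of these data known. All members, any gene of the lists, Epcam and Zeb1 could be named, as could the genes most like a member, taken by the distance rule given in the text. Genes outside these are marked as chosen after their values were seen.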

Additional observations from a re-analysis of the deposited data

Results flagged for a closer look

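In the EpCAM- libraries, Naip6 had 2.75 CPM in replicate 1 and 1.16 to 1.40 CPM in the other 3, a gap that exceeded Dixon's limit for 4 samples. The Naip2 share of NAIP reads was 30.2% in EpCAM- replicate 2 and 33.5% to 34.1% in the other 3, which also exceeded it. Of 24 groups of 4 examined, these 2 exceeded the limit, and chance gives about 1 in 20.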

How the results depend on the processing

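Across the alternatives, Xiap, Naip5 and Birc3 kept their direction and passed in all 7, Birc2 in 6 of 7. Birc2 missed the threshold with a filter of 1 count in any library (0.27, edgeR adjusted p = 0.0557). The sign of Birc6, not called in any, turned to 0.033 with upper-quartile scaling and 0.030 with library totals, and that of Naip2 to -0.0073 with DESeq2, -0.0079 with its size factors and -0.014 with the 1-count filter. With the replicate number as a block, Naip6 had 0.71 (edgeR adjusted p = 0.0340) and 4 inflammasome genes rose in place of 2 and 3 genes of TNF signaling fell in place of 2, while the block changed the call of no other member. With upper-quartile scaling or library totals the fall of Birc5 was lost in the first (0 lower), 0 genes of TNF signaling fell and 1 ubiquitin enzyme gene rose in both. Under these scalings the median of all genes was 0.11 in place of 0.02, and 3642 genes rose and 2083 fell, or 3476 and 2066, against 2961 and 2818. With deposited FPKM, 4 of the 8 members kept their rank in each fraction. The cause of these changes was not tested.

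With each library left out, the log2 fold change ranged from 0.25 to 0.34 for Birc2, 0.33 to 0.49 for Birc3, 0.41 to 1.05 for Naip6 and -0.21 to 0.22 for Naip2, and the number of members higher from 2 (without EpCAM+ replicate 3 or 4, or EpCAM- replicate 2 or 3) to 5. Lower calls ranged from 0 to 1 for other BIR genes and 0 to 3 for TNF signaling, and higher calls from 0 to 1 for ubiquitin enzymes. Naip6 and Naip2, with 16 to 94 reads per library, had the widest intervals.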
